A study of Homo sapiens with 9 samples.

Results

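Each microRNA (miRNA) hairpin holds a mature sequence in either side of its stem, the 5p arm and the 3p arm. The partner arms described here are the ones opposite the better known guide arms of 6 hairpins. They were chosen by name from the miR-17-92 cluster (hsa-miR-17-3p, hsa-miR-18a-3p, hsa-miR-20a-3p and hsa-miR-19b-1-5p) and from the miR-106b-25 cluster (hsa-miR-106b-3p and hsa-miR-93-3p), with the prefix for human left out below. They are 6 of the 2652 mature miRNA names in the count table, and 6 of 6 were among the 408 miRNAs with enough counts to be tested. The reference for each was the guide arm of its own hairpin, in the same order miR-17-5p, miR-18a-5p, miR-20a-5p, miR-19b-3p, miR-106b-5p and miR-93-5p.

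The study asked which miRNAs associate with the 3'UTR of PD-L1, an immune checkpoint ligand encoded by CD274, in ES-2 cells, an established line derived from ovarian cancer. In miTRAP, a bait RNA with MS2 loops is held on amylose resin by a fusion of maltose-binding protein and MS2-binding protein, and RNA retained from cell lysate is eluted and sequenced. There were 9 small RNA libraries of untreated, wild-type ES-2 cells, 3 each of the lysate before trapping (input), of RNA retained by a bait with loops and no 3'UTR (MS2 control), and of RNA retained by the PD-L1 3'UTR bait. The study's methods state many times more bait RNA for the PD-L1 3'UTR than for the MS2 control. Bait sequence and bait amount therefore cannot be told apart. The methods describe the study's experiments in general as biological replicates, while the labels do not say whether replicates came from separate cultures.

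As background, Dicer cuts a hairpin into a short duplex, and an Argonaute protein keeps mostly the strand whose 5' end is less tightly paired. That strand, the guide, finds target RNAs mainly through its seed, the bases near its 5' end, while the other strand is usually degraded and so is often called the passenger. Some hairpins yield both strands in quantity, and a partner arm that stays in Argonaute has a seed and targets of its own. The miR-17-92 cluster is transcribed from its host gene MIR17HG, an oncogenic transcript activated by MYC, and the miR-106b-25 cluster lies in an intron of MCM7, which encodes a replication helicase subunit.

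The 6 partner arms are shown with bases 2 to 8, the seed, in capitals, because the seed sets which targets an arm can pair with. All 12 arms were found in RefSeq (GRCh38.p14), and the lengths of the partner arms are 22 or 23 bases, so read counts were compared between arms without scaling by length.
miR-17-3p: aCUGCAGUgaaggcacuuguag
miR-18a-3p: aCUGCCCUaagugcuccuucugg
miR-20a-3p: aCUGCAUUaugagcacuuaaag
miR-19b-1-5p: aGUUUUGCagguuugcauccagc
miR-106b-3p: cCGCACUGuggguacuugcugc
miR-93-3p: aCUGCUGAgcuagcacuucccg

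The guide arms of the same hairpins, with the same bases in capitals, share seeds more often.
miR-17-5p: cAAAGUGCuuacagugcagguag
miR-18a-5p: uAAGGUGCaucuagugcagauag
miR-20a-5p: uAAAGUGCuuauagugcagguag
miR-19b-3p: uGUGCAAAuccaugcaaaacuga
miR-106b-5p: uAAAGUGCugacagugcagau
miR-93-5p: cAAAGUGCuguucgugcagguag

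The 6 partner arms had 6 distinct seeds, of which 4 begin with CUGC, whereas the 6 guide arms had 3, with AAAGUGC in miR-17-5p, miR-20a-5p, miR-93-5p and miR-106b-5p. No other mature miRNA in RefSeq carried the seed of miR-17-3p, miR-18a-3p, miR-20a-3p, miR-93-3p or miR-106b-3p. The seed of miR-19b-1-5p was shared with miR-19a-5p and miR-19b-2-5p. The partner arms were also easier to tell from other miRNAs by their reads. Between 4 and 8 single-base edits separated each from its nearest other mature miRNA, against 1 to 5 for the guide arms, where miR-17-5p, miR-18a-5p and miR-19b-3p each had a neighbour at 1 edit.

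The 4 arms of the miR-17-92 cluster lie on the plus strand of chromosome 13 within MIR17HG, in the order miR-17-3p (chr13:91350655-91350676), miR-18a-3p (chr13:91350797-91350819), miR-20a-3p (chr13:91351108-91351129) and miR-19b-1-5p (chr13:91351207-91351229). The other 2 lie on the minus strand of chromosome 7 within MCM7, miR-106b-3p at chr7:100094002-100094023 and miR-93-3p at chr7:100093777-100093798. The guide miR-19b-3p has 2 loci, this cluster and a copy on chromosome X, and its reads were summed over both.

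A partner arm pairs with its guide in the duplex, and 3 partner arms kept the complement of guide bases 3 to 8 (AAGUGC) as the letters GCACUU, shown here in capitals.
miR-17-3p: acugcagugaagGCACUUguag
miR-20a-3p: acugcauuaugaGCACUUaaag
miR-93-3p: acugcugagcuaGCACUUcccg

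GCACUU occurred in 3 of 6 partner arms, in 0 of 6 guide arms and in 31 of 2370 mature miRNAs in RefSeq (1.31%). In the annotated CD274 3'UTR of 2704 bases, read on the sense strand of the transcript, matches to partner seeds were few. miR-17-3p had 1 match to seed bases 2 to 7 followed by an adenine, CTGCAGA at bases 355 to 361 of the 3'UTR, and such a match was found in 27.7% of 4555 human 3'UTRs cut to the same length. miR-20a-3p had only the 6 letters ATGCAG at bases 102 to 107, found in 57.5% of those 3'UTRs. miR-18a-3p, miR-19b-1-5p, miR-93-3p and miR-106b-3p had no match even to 6 letters. The AAAGUGC guides had the full match GCACTTTA at bases 2496 to 2503 (7.4% of 3'UTRs), whereas miR-18a-5p had only the 6 letters CACCTT at bases 690 to 695 (55%) and miR-19b-3p had no match to 6 letters. A match is a stretch of letters and no measured site, and which part of the 3'UTR the bait carried was not analysed here.

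Total counts were 3794799 to 5983577 in the input, 1156261 to 2236535 in the MS2 control and 672824 to 1237652 in the PD-L1 3'UTR libraries, where 3 counts correspond to 0.676 to 1.01, 1.19 to 2.27 and 2.12 to 4.02 counts-per-million (CPM). Levels below are CPM scaled by TMM, which assumes that most miRNAs do not change. With library totals instead, the median over the 408 tested miRNAs, on the log2 fold scale, moved by 0.57 and 0.63 when the PD-L1 3'UTR and the MS2 control were compared with the input, and by -0.05 between the baits. PD-L1 3'UTR replicate 1 stood apart from the other libraries in miRNAs of other tissues. Summed over 3 muscle miRNAs, levels were 1.58 to 4.05 CPM in the input, 44.8 to 131 in the MS2 control and 28.3 to 1830 with the PD-L1 3'UTR, the highest in replicate 1. The same library was the highest of its group for the liver miRNA miR-122-5p (1.58 to 3.42, 40.1 to 50.4 and 0 to 161 CPM by group), for 5 epithelial miRNAs (41.5 to 55.5, 55.2 to 78.2 and 37 to 236) and for 5 blood miRNAs (194 to 268, 318 to 365 and 544 to 1500). Neuronal miRNAs, mostly miR-9-5p, summed to 206 to 250, 78.9 to 135 and 382 to 646 CPM, and 4 miRNAs of pluripotent cells to at most 13.8. Of the markers, miR-302a-3p, miR-367-3p and the epithelial miR-429 were at 0 in all 9 libraries. The part of other tissues in the results was not tested. Values without that library are given below beside the counts of calls.

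Partner arm levels spanned over 2 orders of magnitude in each group, and their order changed with trapping. In the input, miR-106b-3p led at 776.3 CPM ± 56.1 (SD, n = 3, as for all means below), followed by miR-18a-3p at 97 ± 5.63, miR-20a-3p at 32.03 ± 6.89, miR-93-3p at 30.97 ± 5.29, miR-17-3p at 17.44 ± 2.51 and miR-19b-1-5p at 6.714 ± 3.65. Of these neighbours, only miR-20a-3p and miR-93-3p had overlapping libraries. In the MS2 control, miR-106b-3p at 1244 CPM ± 89.5 stood clear of the rest, miR-18a-3p (32.56 ± 6.89), miR-17-3p (25.39 ± 6.2) and miR-93-3p (16.81 ± 13.8) overlapped each other in turn, and miR-19b-1-5p (4.268 ± 3.03) overlapped both miR-93-3p and miR-20a-3p (2.987 ± 1.29), the lowest here. With the PD-L1 3'UTR, miR-106b-3p again led at 898.4 CPM ± 76.4, and miR-17-3p (75.9 ± 7.52), miR-18a-3p (72.78 ± 8.06) and miR-20a-3p (64.03 ± 13.7) overlapped as a group above miR-93-3p (13.94 ± 3.29) and miR-19b-1-5p (6.99 ± 1.22).

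**Figure D1:**
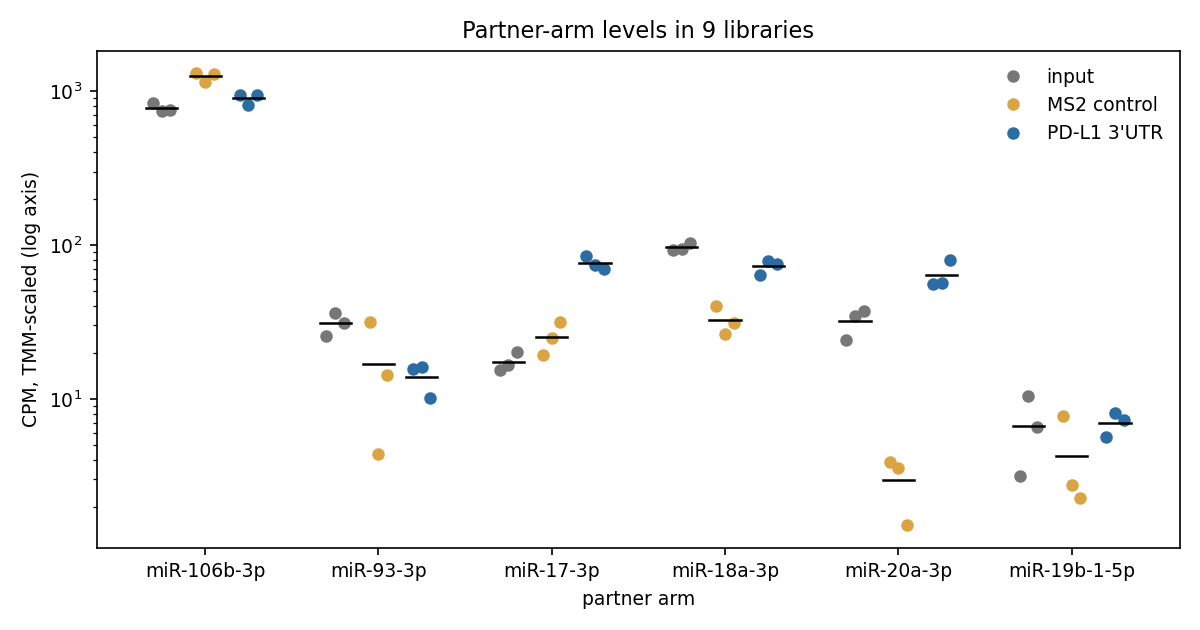
Levels of the 6 partner arms in each of the 9 libraries, in TMM-scaled CPM on a log axis, with points for libraries (gray, input; yellow, MS2 control; blue, PD-L1 3'UTR) and a bar at each group mean. miR-106b-3p is the highest in each library, and miR-20a-3p drops to between 1.513 and 3.879 CPM in the MS2 control and lies between 55.93 and 79.81 CPM on the PD-L1 3'UTR bait.

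Against the MS2 control, 3 of the 6 partner arms rose on the PD-L1 3'UTR bait (miR-20a-3p, miR-17-3p and miR-18a-3p), 1 fell (miR-106b-3p), and miR-19b-1-5p and miR-93-3p did not pass the test. That test was edgeR's quasi-likelihood test on all 9 libraries at a Benjamini-Hochberg adjusted p under 0.05 over the 408 miRNAs, and it called 60% of all miRNAs in this comparison, 31.4% higher and 28.7% lower. The share of partner arms called was thus close to that of miRNAs in general. Their median log2 fold change was 0.93, against 0.02 over all miRNAs and 5.7 over the 6 guide arms, of which 6 were higher. Without PD-L1 3'UTR replicate 1, 4 partner arms were called as well, and so were 4 with library totals, which called 59.6% of all miRNAs.

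Relative to the lysate, miR-17-3p and miR-20a-3p rose on the PD-L1 3'UTR bait, and the other 4 arms did not pass. Of all miRNAs, 66.4% were called here, 34.1% higher and 32.4% lower. The median over the 6 was 0.13, against 0.04 over all miRNAs and 3.17 over the guide arms, of which 5 were higher and miR-19b-3p was at the edge (adjusted p = 0.0512). With library totals, 68.3% of all calls were higher in place of 51.3%, 68.9% of all miRNAs were called, and 3 partner arms were, with miR-106b-3p added. Without PD-L1 3'UTR replicate 1 the same number of partner arms, 2, was called, and without replicate 3 only 1.

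The MS2 control bait itself held a different mix of the partner arms than the lysate. Relative to the input, miR-106b-3p was higher, miR-20a-3p and miR-18a-3p were lower, and 3 did not pass. In this comparison 69.9% of all miRNAs were called, 32.8% higher and 37% lower. The median over the 6 was -0.78, against 0.02 over all miRNAs and -2.04 over the guide arms, which were lower in 6 of 6. By library totals, however, miR-18a-5p averaged 47.1 CPM in the input and 48.01 in the MS2 control, so its direction depended on the scaling. With library totals 4 partner arms were called, miR-17-3p being added, as were 74.3% of all miRNAs, and the share of calls in the higher direction moved from 47% to 65.7%. The 3 comparisons share libraries and are not independent of each other.

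Among the miR-17-92 arms, miR-20a-3p, the arm opposite miR-20a-5p, showed the largest differences in both comparisons that involve the MS2 control, while miR-17-3p led against the input. Replicates 1, 2 and 3 had 24.2, 34.73 and 37.17 CPM in the input, 3.879, 3.569 and 1.513 in the MS2 control and 55.93, 56.35 and 79.81 with the PD-L1 3'UTR bait. No groups overlapped, and the MS2 control was the lowest, with 6, 9 and 2 reads. The 20.4-fold difference between the baits (log2 4.35 ± 0.38 SE, adjusted p = 2.87e-06) thus rested on 17 control reads in all, for which an exact Poisson 95% interval is 9.9 to 27.2. From the input to the MS2 control this arm fell 10.2-fold (adjusted p = 2.04e-05), and from the input to the PD-L1 3'UTR it rose 2-fold (log2 1 ± 0.30, adjusted p = 0.0126). When single libraries were left out in turn, this rise passed in 8 of 9 fits, and was 0.81 (adjusted p = 0.0559) without PD-L1 3'UTR replicate 3. It was 0.75 (0.186) when every miRNA with a read entered the fit.

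miR-17-3p, the arm opposite miR-17-5p, rose with the PD-L1 3'UTR relative to both references. It had 15.52, 16.52 and 20.28 CPM in the input, 19.4, 24.98 and 31.78 in the MS2 control, and 84.25, 73.79 and 69.66 with the PD-L1 3'UTR. All PD-L1 3'UTR libraries exceeded the 6 others, while input and MS2 control overlapped. The fold was 3 over the MS2 control (log2 1.58 ± 0.26, adjusted p = 0.00034) and 4.34 over the input (2.12 ± 0.26, adjusted p = 4.99e-05). Between MS2 control and input the log2 difference was 0.53 ± 0.26 (adjusted p = 0.0851). It passed with library totals, at 1.15 (adjusted p = 0.00182), with DESeq2's size factors, at 0.61 (0.0467), and without MS2 control replicate 1, at 0.69 (0.0368).

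miR-18a-3p, which in the input outnumbered its own guide miR-18a-5p, was lower on the MS2 control bait than in either of the other groups. Its levels were 92.86, 94.74 and 103.4 CPM in the input, 40.08, 26.57 and 31.02 in the MS2 control and 63.72, 79.16 and 75.46 with the PD-L1 3'UTR, and no groups overlapped. The MS2 control was 2.99-fold below the input (adjusted p = 0.000115), and the PD-L1 3'UTR was 2.24-fold above the MS2 control (log2 1.16 ± 0.23, adjusted p = 0.00108). Against the input the log2 value was -0.42 ± 0.22 (adjusted p = 0.113). This last direction depended on the scaling, since library totals gave 0.15.

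miR-19b-1-5p was the least abundant member, with 3 to 31 reads in a library. It had 3.157, 10.45 and 6.533 CPM in the input, 7.758, 2.776 and 2.27 in the MS2 control and 5.664, 8.05 and 7.256 with the PD-L1 3'UTR, and all groups overlapped. The 22 reads of the MS2 control libraries (exact Poisson 95% interval 13.8 to 33.3) and the 24 of the PD-L1 3'UTR libraries (15.4 to 35.7) leave a wide range. A difference was not detectable at this depth between the baits (log2 0.70 ± 0.66, adjusted p = 0.375), between PD-L1 3'UTR and input (0.05 ± 0.60, 0.951) or between MS2 control and input (-0.65 ± 0.60, 0.349).

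Of the miR-106b-25 arms, miR-106b-3p was by far the most abundant partner arm, with 604 to 3328 reads in a library, and moved against its guide arm in both comparisons that involve the MS2 control. It had 840.7, 738.3 and 749.8 CPM in the input, 1302, 1141 and 1289 in the MS2 control and 947.2, 810.4 and 937.4 with the PD-L1 3'UTR. The MS2 control libraries were above all others, and those of input and PD-L1 3'UTR overlapped. In the MS2 control it was 1.6-fold above the input (log2 0.68 ± 0.13, adjusted p = 0.00101) and the PD-L1 3'UTR libraries were 1.38-fold below the MS2 control (-0.47 ± 0.13, adjusted p = 0.0105). PD-L1 3'UTR against input gave 0.21 ± 0.13 (adjusted p = 0.18), and 0.78 (adjusted p = 0.000625) with library totals. When every miRNA with a read entered the fit, the calls against the MS2 control (-0.46, 0.127) and between MS2 control and input (0.41, 0.183) were lost.

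miR-93-3p, the arm opposite miR-93-5p, passed no test of its level in the fit of all 9 libraries and 408 miRNAs, but did under some alternatives. It had 25.52, 36.07 and 31.31 CPM in the input, 31.68, 4.362 and 14.38 in the MS2 control and 15.58, 16.1 and 10.16 with the PD-L1 3'UTR. The MS2 control libraries, of 49, 11 and 19 reads, spread more widely than those of any other member, and they overlapped both other groups. All PD-L1 3'UTR libraries were below the input (log2 -1.16 ± 0.57, adjusted p = 0.093). MS2 control replicate 1 decided the direction between the baits, which was -0.25 ± 0.59 (adjusted p = 0.736) with it and 0.64 without it. With that library left out, miR-93-3p fell from the input to the MS2 control (-1.81, adjusted p = 0.00938), in place of -0.91 ± 0.54 (0.154), and from the input to the PD-L1 3'UTR (-1.16, 0.0322). The latter also passed without MS2 control replicate 2 (-1.16, 0.0175) and with only the compared groups in the fit (-1.29, 0.00433), and with every miRNA that had a read both passed (-1.42, 0.0126 for the PD-L1 3'UTR and -1.2, 0.0355 for the MS2 control).

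The guide arms gave the scale against which these differences stand. Summed over the 6 hairpins, guide reads made up 1 to 1.2% of all miRNA reads in the input, 0.228 to 0.244% in the MS2 control and 14.7 to 19.3% with the PD-L1 3'UTR. Partner reads made up 0.0704 to 0.0752%, 0.136 to 0.175% and 0.116 to 0.134%. The guide sum was thus lowest on the MS2 control bait and the partner sum lowest in the input, without overlap of groups in either case. Most partner reads came from miR-106b-3p, for example 3196 of 3809 in input replicate 1.

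Over the MS2 control, the guide arms differed by log2 7.67 ± 0.25 (miR-106b-5p), 6.71 ± 0.19 (miR-17-5p), 6.15 ± 0.21 (miR-20a-5p), 5.26 ± 0.18 (miR-93-5p), 4 ± 0.17 (miR-18a-5p) and 2.02 ± 0.24 (miR-19b-3p). The order of the partner arms was another, with miR-20a-3p at 4.35 as the highest and miR-106b-3p, opposite the leading guide, at -0.47 as the lowest. In each hairpin the partner arm had the smaller value.

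**Figure D2:**
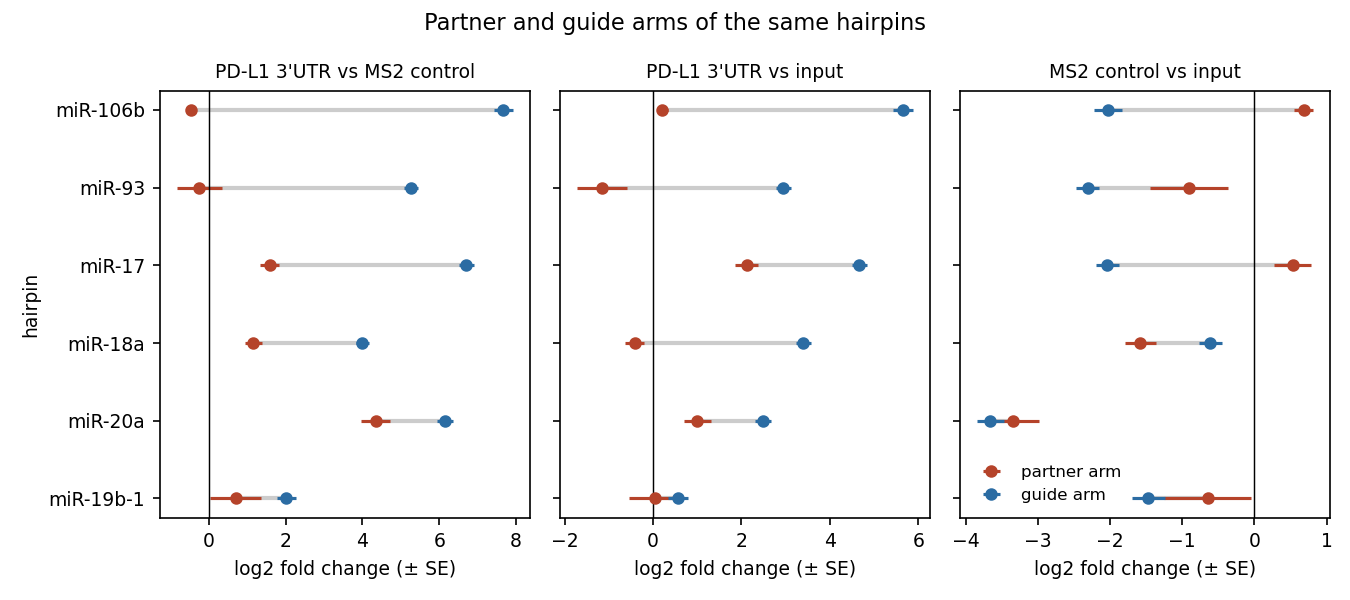
Log2 fold changes ± SE of the partner arm (red) and guide arm (blue) of each hairpin in the 3 comparisons, joined by a gray line. The guide arm lies to the right of the partner arm in 6 of 6 hairpins for the PD-L1 3'UTR against the MS2 control, at 7.67 and -0.47 for miR-106b, and to its left in 5 of 6 for the MS2 control against the input.

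Because both arms of a hairpin come from the same library, their ratio does not depend on how libraries are scaled. The partner arm was not the minor arm in all 6 hairpins. In the input it held 60.9% ± 1.12 of the reads of the miR-18a hairpin and 61.3% ± 8.26 of those of the miR-106b hairpin, so the names partner and guide go against the read numbers of this lysate in 2 of 6 cases. It held 0.328% ± 0.0211 of the miR-20a, 0.8% ± 0.188 of the miR-17, 1.45% ± 0.309 of the miR-93 and 2.15% ± 1.08 of the miR-19b-1 reads. For miR-19b-1 the guide reads are those of miR-19b-3p summed over its 2 loci. Its shares and ratios here and below are therefore not those of a single hairpin. Over the 119 hairpins with both arms tested, the arm that was minor in the input held a median of 5.16% there, with quartiles of 0.769% and 16.3%.

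The miR-106b hairpin showed the widest swing. miR-106b-3p held 70.4, 59.1 and 54.3% of its reads in the input, 91.3, 90.5 and 91.3% in the MS2 control, and 4.06, 2.74 and 3.82% with the PD-L1 3'UTR. No groups overlapped, and the exact binomial (Clopper-Pearson) 95% intervals, which cover counting error only, were narrow beside these gaps, for example 69.1 to 71.8% in input replicate 1 and 2.52 to 2.96% in PD-L1 3'UTR replicate 2. Guide reads per partner read went from 0.65 ± 0.213 in the input to 0.0985 ± 0.00529 in the MS2 control and 28.1 ± 6.5 with the PD-L1 3'UTR.

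The miR-18a hairpin also changed its major arm. miR-18a-3p held 59.7, 61.1 and 61.9% of reads in the input, 48.4, 41.4 and 42.3% in the MS2 control, and 10.1, 10.4 and 9.55% with the PD-L1 3'UTR. Groups did not overlap, though the 95% intervals of MS2 control replicates 1 (39.5 to 57.4%) and 3 (32.3 to 52.7%) take in equal shares of the arms. Partner reads were in the minority in all PD-L1 3'UTR libraries of both the miR-18a and the miR-106b hairpin.

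In the other hairpins the partner arm stayed minor throughout. miR-17-3p held 0.614 to 0.991% of the miR-17 reads in the input, 3.97 to 5.28% in the MS2 control and 0.116 to 0.181% with the PD-L1 3'UTR, without overlap. miR-93-3p held 1.12 to 1.74%, 0.952 to 6.55% and 0.0577 to 0.121%, where input and MS2 control overlapped. miR-20a-3p held 0.305 to 0.347%, 0.206 to 0.583% and 0.0909 to 0.143%, again with the PD-L1 3'UTR below the other groups. miR-19b-1-5p held 1.06 to 3.23%, 1.44 to 8.22% and 1.39 to 1.85%, and its groups overlapped.

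**Figure D3:**
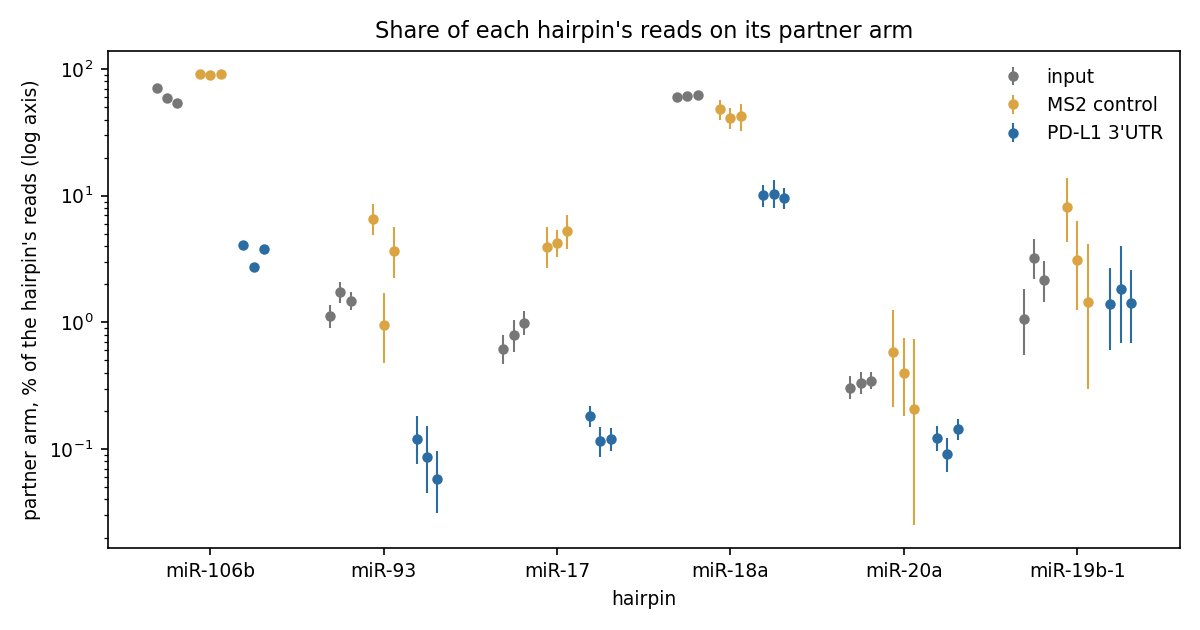
Percent of each hairpin's reads (partner plus guide) that fell on the partner arm, on a log axis, for the 9 libraries, with vertical lines for exact binomial 95% intervals. For miR-19b-1 the guide reads are summed over 2 loci. The PD-L1 3'UTR libraries (blue) are the lowest group in 5 hairpins, from 60.9% to 10% in the miR-18a means and from 61.3% to 3.54% in the miR-106b means between input and PD-L1 3'UTR, and overlap the other groups for miR-19b-1.

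The arm ratio was tested in edgeR with an effect of each library and an effect of arm within each group, adjusted over the 119 hairpins. With the PD-L1 3'UTR, the guide gained on the partner relative to the MS2 control in 6 of 6 hairpins. The study had named the miR-17 seed family, which includes miR-17-5p, miR-20a-5p, miR-93-5p and miR-106b-5p, as the most enriched in these same libraries. Gains in those hairpins are therefore not independent of how that family was picked out. Of the 119, 73.9% changed in either direction, and the arm that was major in the input gained in 47 and lost in 41. In the miR-18a and miR-106b hairpins the arm that gained was the minor one of the input. The gain was log2 8.13 ± 0.34 for miR-106b, a 280-fold change that ranks 3 of 119 by size, 5.28 ± 0.52 for miR-93 (38.9-fold, rank 13) and 5.09 ± 0.33 for miR-17 (34.1-fold, rank 14). It was 2.82 ± 0.35 for miR-18a (rank 44), 1.77 ± 0.48 for miR-20a (rank 65) and 1.38 ± 0.62 for miR-19b-1 (rank 79), against a median size of 1.94 over all hairpins. Adjusted p ranged from 5.35e-17 to 0.00172 in 5 hairpins. That of miR-19b-1 was 0.0492 and was lost without MS2 control replicate 1 (0.62, adjusted p = 0.43) or without any 1 of the PD-L1 3'UTR libraries (1.31 to 1.48). It was also lost with limma on log2 ratios (adjusted p = 0.128), with every hairpin that had a read on each arm (1.37, 0.258) and with the replicate number as a block (1.32, 0.0552). Without PD-L1 3'UTR replicate 1, 5 hairpins were called.

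**Figure D4:**
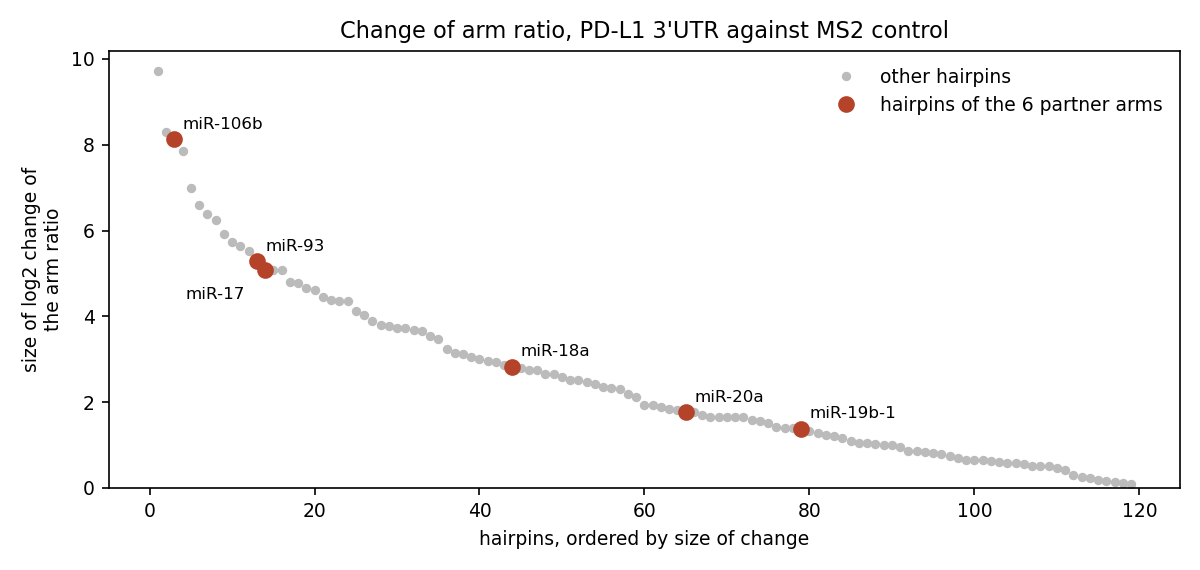
Size of the log2 change of the arm ratio between PD-L1 3'UTR and MS2 control for the 119 hairpins with both arms tested, ordered by size, with the hairpins of the 6 partner arms in red. miR-106b ranks 3, miR-93 and miR-17 rank 13 and 14, and miR-18a, miR-20a and miR-19b-1 lie from rank 44 to 79.

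Against the input, the guide gained with the PD-L1 3'UTR in 5 of 6 hairpins, where 64.7% of all hairpins changed. The same limit on guides of the miR-17 seed family holds here. Values were log2 5.46 ± 0.32 for miR-106b (rank 4), 4.07 ± 0.46 for miR-93 (rank 10), 3.81 ± 0.34 for miR-18a (rank 12), 2.54 ± 0.31 for miR-17 (rank 37) and 1.48 ± 0.30 for miR-20a (rank 71), with adjusted p from 8.63e-14 to 0.000102. The miR-19b-1 hairpin did not pass, at 0.45 ± 0.55 (adjusted p = 0.479). Over all hairpins the major arm of the input gained in 29 and lost in 48. Without PD-L1 3'UTR replicate 1 the same number, 5, passed.

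Between the MS2 control and the input 4 of 6 ratios changed, with 71.4% of all hairpins called. The partner gained on the guide by log2 2.67 in miR-106b (a 6.35-fold change, SE 0.31, adjusted p = 2.82e-08), by 2.55 in miR-17 (5.86-fold, SE 0.32, 1.33e-07) and by 1.21 in miR-93 (2.31-fold, SE 0.46, 0.0216). In miR-18a the guide gained, by 0.99 ± 0.34 (adjusted p = 0.0128). This call was lost with every hairpin that had a read on each arm (0.99, 0.0525). With single libraries left out it was kept in 8 of 9 fits (largest adjusted p = 0.0502). For miR-20a both arms fell, and the change of their ratio was -0.29 ± 0.47 (adjusted p = 0.58). That of miR-19b-1 was -0.93 ± 0.56 (0.143). The miR-93 call was lost without MS2 control replicate 1 (-0.45, 0.444), with limma (-1.06, 0.0898) and with every hairpin that had a read on each arm (-1.19, 0.161).

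Ratios between partner arms of the same cluster were compared over the libraries, in a design of 3 against 3 that cannot reach the threshold. miR-20a-3p and miR-17-3p lie in the same cluster, with miR-18a-3p between them. Reads of miR-20a-3p per read of miR-17-3p were 1.56, 2.1 and 1.83 in the input. These ratios were 0.2, 0.143 and 0.0476 in the MS2 control and 0.664, 0.764 and 1.15 with the PD-L1 3'UTR. No groups overlapped. The mean log2 ratio differed by 2.91 between the baits, by -1.12 between PD-L1 3'UTR and input and by -4.04 between MS2 control and input. An exact two-sided permutation test gave p = 0.1 for each, the smallest that 3 against 3 libraries allow (0.12 after adjustment over 6 tests).

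Reads of miR-106b-3p per read of miR-93-3p were 32.9, 20.5 and 23.9 in the input, 41.1, 262 and 89.6 in the MS2 control and 60.8, 50.3 and 92.3 with the PD-L1 3'UTR. The input was below both baits, and the baits overlapped. The log2 difference was 1.38 for PD-L1 3'UTR and 1.97 for MS2 control against the input, each with exact permutation p = 0.1 (adjusted 0.12), and -0.59 between the baits (p = 0.7).

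Of 9 further partner arms of these clusters and of the related miR-106a-363 cluster, 2 had enough reads to be tested. Both fell from the MS2 control to the PD-L1 3'UTR, miR-92a-1-5p by log2 -3.34 ± 0.27 (adjusted p = 1.5e-06) and miR-25-5p by -3.53 ± 0.45 (5.52e-05). Both rose from the input to the MS2 control, by 1.39 ± 0.24 (0.000504) and 4.19 ± 0.45 (1.64e-05). miR-92a-1-5p went from 338.9 CPM ± 90.7 in the input to 886 ± 177 in the MS2 control and 87.64 ± 16.8 with the PD-L1 3'UTR, and miR-25-5p from 16.55 ± 3.55 to 304.1 ± 55.1 and 27.48 ± 20.5. Among the 6 members, miR-106b-3p had the same directions in both comparisons. The 7 untested arms had at most 7 reads in any library.

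Of 7 further guide arms, 6 were tested. Over the MS2 control 5 were higher. They were miR-106a-5p (7.01 ± 0.22), miR-20b-5p (5.64 ± 0.48), miR-92a-3p (0.80 ± 0.13), miR-19a-3p (0.60 ± 0.22) and miR-18b-5p (7.29 ± 1.27). miR-18b-5p had 1, 0 and 2 reads in the input and 0 in all MS2 control libraries. On the PD-L1 3'UTR bait it had 15, 6 and 10 reads. It thus passed the count filter only through the group in which it was high, and its calls are not independent of that filter. miR-25-3p, whose partner is miR-25-5p, did not pass (-0.19 ± 0.14, adjusted p = 0.253). From the input to the PD-L1 3'UTR, 3 rose, 1 fell (miR-92a-3p) and 2 did not pass. Among the 3 was miR-18b-5p (4.78 ± 0.82), where the same limit holds.

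The patterns of the partner arms over the 9 libraries were mostly unlike those of their guides. Likeness was measured as Pearson's r of log2 CPM with each of 407 other tested miRNAs, as a description only, since the libraries fall into 3 groups. miR-20a-3p was closest to its guide, which ranked 6 of 407 (r = 0.969) after miR-30a-5p, miR-324-5p and miR-23a-3p (0.984, 0.983 and 0.98). miR-17-5p ranked 39 for miR-17-3p (0.838), behind miR-135b-5p, miR-146b-5p and miR-140-5p at 0.966, 0.964 and 0.963. For miR-18a-3p the leading miRNAs were miR-500a-5p, miR-548k and miR-100-5p (0.984, 0.982 and 0.969), with its guide at rank 143 (0.392).

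The miR-106b-25 arms were the farthest from their guides. miR-106b-5p ranked 272 for miR-106b-3p (r = -0.443), whose nearest were miR-125a-3p, miR-210-3p and miR-125b-1-3p (0.974, 0.962 and 0.953). miR-93-5p ranked 203 for miR-93-3p (-0.013), behind miR-7-1-3p, miR-576-5p and miR-425-3p (0.874, 0.808 and 0.788). miR-19b-1-5p, with few reads, had no close match, the highest being miR-4788, miR-671-3p and miR-125b-2-3p (0.652, 0.649 and 0.648), and its guide at rank 54 (0.433). Among the members, miR-18a-3p and miR-20a-3p were the most alike (0.86), and miR-106b-3p and miR-18a-3p the most opposed (-0.92).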

How the data were processed

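Small RNA of ES-2 lysate and miTRAP eluates was sequenced in 9 single-end libraries. The authors deposited raw read counts, with a row for every locus of a mature miRNA. Per the labels, reads were processed with cutadapt 1.18, Bowtie2 2.2.6, featureCounts 1.6.3 and the build hg38, and the study's methods name miRBase. How reads that fit several loci were placed was not given in the sources used here. Groups and replicates follow the sample titles. The 2883 locus rows were summed to 2652 names, of which 408 passed filterByExpr by group and held 99.676 to 99.934% of each library's counts. Tests used edgeR 4.0.16 in R 4.3.3 (glmQLFit, glmQLFTest, two-sided) on all 9 libraries. Level tests used TMM and 3 group means. Arm tests used library totals, with an effect of each library and of arm within each group. The common biological coefficient of variation was 31.1% for levels and 20.3% for arms. The SE is the size of the log2 fold change divided by the square root of F. p values set each difference against the spread between these libraries, which may be technical.

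Arms were paired by name, and 10 of the 119 hairpins share an arm with another. All replicate pairs differed beyond sampling noise (chi-square per degree of freedom from 12.5 up). In each group replicate 1 was the farthest from the others. Its values against replicates 2 and 3 were 177 and 244 in the input, 141 and 167 in the MS2 control and 109 and 183 with the PD-L1 3'UTR. Between replicates 2 and 3 they were 12.5, 39 and 19.5. The cause was not tested. Named miRNAs are the 6 partner arms, their guides, tested members of the cluster list, and the 3 most alike miRNAs, beside the tissue markers and the miRNAs that share a seed with a member or lie nearest to it in sequence. Members and lists, markers included, were chosen with earlier results of these data known. The 2704 bases of the CD274 3'UTR came from GENCODE (GRCh37), and their positions are counted within the 3'UTR. Mature sequences came from RefSeq (GRCh38.p14), which held 2363 of the 2652 names. Intervals are exact Poisson or Clopper-Pearson intervals at 95% and cover counting error only, since PCR reads are not independent molecules.

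Alternatives were other scalings (library totals, size factors of DESeq2), the DESeq2 1.42.0 test, a looser filter (none) and a stricter one (10 CPM on average in a group), fits of the compared groups alone, a replicate block, separate loci and leaving out each library, and for arm ratios limma 3.58.1 on log2 ratios (0.5 added to each count) and only hairpins with 1 locus per arm.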

Additional observations from a re-analysis of the deposited data

How the results depend on the processing

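Fitting only the groups compared gave 4 partner arms called for PD-L1 3'UTR against input in place of 2, with miR-18a-3p (-0.54) and miR-93-3p (-1.29) added, and testing every hairpin with at least 1 count per arm gave 2 changed arm ratios for MS2 control against input in place of 4, over 477 hairpins rather than 119. For PD-L1 3'UTR against input, values near 0 turned: miR-18a-3p with library totals (0.15), miR-106b-3p with no filter (-0.05), and miR-19b-1-5p with no filter (-0.2), only the groups compared (-0.07) and separate loci (-0.03). The causes were not tested. Leaving out each library in turn gave 4 to 4 partner arms called between the baits, 1 to 3 for PD-L1 3'UTR against input (1 without PD-L1 3'UTR replicate 3) and 3 to 5 for MS2 control against input (5 without MS2 control replicate 1), and 5 to 6, 5 to 5 and 3 to 5 changed ratios. Over these fits miR-19b-1-5p ranged from -0.29 to 0.5 for PD-L1 3'UTR against input and miR-93-3p from -0.75 to 0.64 between the baits. With no filter, miR-106b-3p lost its calls between the baits (-0.46) and for MS2 control against input (0.41), and miR-20a-3p its call for PD-L1 3'UTR against input (0.75), while miR-93-3p gained calls against the input for the PD-L1 3'UTR (-1.42) and the MS2 control (-1.2). The miR-19b-1 ratio between the baits kept its call in 1 of 4 alternatives and lost it with limma (adjusted p = 0.128) and no filter (1.37), and limma also lost the miR-93 ratio for MS2 control against input (-1.06).

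Deviations from the group means were no more alike in same-numbered libraries (r from -0.179 to 0.129 over 9 pairs, 1 above 0.1) than in others (-0.119 to 0.192). With 3 libraries in a group, this cannot tell whether replicate numbers pair them. With the replicate block, the miR-19b-1 ratio between the baits was 1.32 (adjusted p = 0.0552), and no other call on the 6 arms or hairpins changed. miR-19b-1-5p could not be fitted with a mean of at least 10 CPM, nor its hairpin with 1 locus per arm. Depth limits miR-19b-1-5p most, and miR-20a-3p in the MS2 control.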
